A study of Sorghum bicolor with 12 samples.

Results

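Neighbouring stem internodes of bioenergy sorghum were compared transcript by transcript: internode 3 (Int3), counted from the shoot apex, against internode 2 (Int2), the younger internode directly above it. Whole internodes were extracted. The comparison holds every transcript with a mean expression of at least 1 RPKM (a read count scaled to transcript length and to the size of the library) in Int2 or in Int3, which was 24683 of the 47205 transcripts in the deposited table and 19226 of its 34211 gene loci. The closest members to this threshold were Sobic.006G267100.1, with a higher internode mean of 1.0 RPKM, on the inside and Sobic.010G175900.1, with 0.997 RPKM, on the outside, and 271 members lay within 0.05 RPKM above the threshold.

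All libraries came from the photoperiod-sensitive inbred R.07020 of Sorghum bicolor at 60 days after planting, grown in a growth chamber under long days that prevent flowering, with no treatment and no mutant. Each of the 4 uppermost internodes, from the youngest visible one (Int1) to the fully expanded one (Int4), was sampled in 3 replicates from 3 plants, which gave 12 libraries, 6 of them from Int2 and Int3. The internodes differ at once in age, position and size, which cannot be told apart here. A library mixes all cell types of an internode, so fewer cells of a type and less RNA per cell cannot be told apart.

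A grass internode grows from cells that divide, elongate and then, in part, deposit a thick secondary wall. The study proposes that division is spread through young internodes and is kept at the base once they elongate. Growing cells have an extensible primary wall of cellulose, hemicelluloses and pectin, which expansins and xyloglucan endotransglucosylase/hydrolases (XTH) loosen and remodel. Xylem and fiber cells add a secondary wall, and the study links an increase in its synthesis to the end of cell elongation. The cellulose of this wall is made by its own set of cellulose synthases, and the wall is filled with glucuronoxylan and lignin.

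The expression of 2403 members differed between the internodes, 9.74% of those tested. A transcript was called when its adjusted p was under 0.001 (limma on log2(RPKM + 0.5) over all 12 libraries, with Benjamini-Hochberg adjustment), its fold change was at least 2 and its mean RPKM was at least 2 in Int2 or Int3. A total of 1267 transcripts (5.13%) from 1193 loci were higher in Int3, and 1136 (4.6%) from 1104 loci were lower. The median log2 fold change of all members was -0.01, with 12113 values above 0 and 12570 below. In every called transcript the 3 Int2 libraries and the 3 Int3 libraries did not overlap, which was also true of 53.5% of all members, 25.7% with higher and 27.8% with lower values in Int3. An unadjusted p under 0.05 was found in 50.2% of the members. Transcripts called higher rose by a median of 1.67 on the log2 scale and those called lower fell by a median of 1.48, and 92 rises against 63 falls exceeded 8-fold. The called transcripts also differed in level. Those that were lower in Int3 took 13.7% of the summed RPKM in Int2 and 5.25% in Int3, whereas those that were higher took 2.97% and 10.01%. The median level of the fallers was 18.3 RPKM in Int2 and 4.94 RPKM in Int3, while that of the risers was 4.01 RPKM in Int2 and 15.5 RPKM in Int3.

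**Figure D1:**
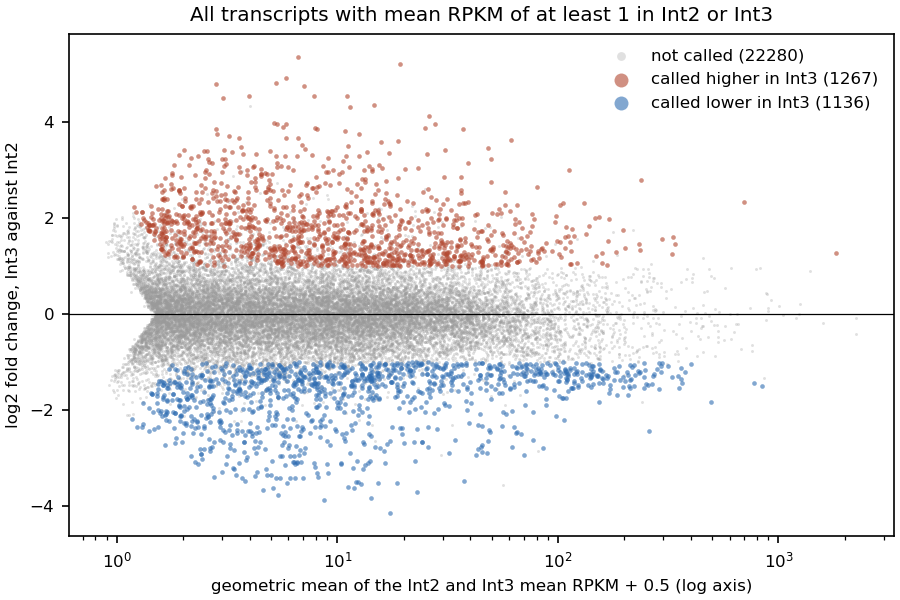
Each point is 1 of 24683 transcripts, with the geometric mean of its Int2 and Int3 levels (RPKM + 0.5, log axis) on the x axis and its log2 fold change of Int3 against Int2 on the y axis. The 1267 transcripts called higher in Int3 (red) reach a log2 fold change of 5.37, the 1136 called lower (blue) reach -4.15, and grey points were not called.

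Int3 libraries varied more among themselves than Int2 libraries. The median SD of a member over the 3 replicates was 0.20 on the log2 scale in Int3 and 0.17 in Int2. Replicate 3 of Int3 lay farthest from Int2 of the 3 Int3 libraries in 746 of the 1267 transcripts called higher and in 818 of the 1136 called lower, and without it 1712 transcripts were called, 911 higher and 801 lower. Fitted on the 6 libraries of the 2 internodes alone, the test called 1590 transcripts, of which the majority were lower in Int3, 856 against 734 higher. Fallers also outnumbered risers without replicate 2 of Int3 (955 lower, 918 higher) and without replicate 3 of Int4 (1240 lower, 1234 higher). Which direction held more calls therefore depended on the libraries in the fit. Libraries within an internode were similar to each other, with correlations across members of 0.97 to 0.98 in Int2 and 0.96 to 0.97 in Int3, against 0.85 to 0.91 between the internodes. The files give no read counts. The spacing of low RPKM values put the depth of these 6 libraries at 0.834 to 0.892 of that of replicate 1 of Int1.

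Only 143 of the 1267 transcripts called higher had an annotation here. Several of the steepest rises that could be named belonged to wall and lipid transcripts. Which ones could be named depended on the categories held, and cell wall categories alone made up 195 of the 744 annotated members. The largest of all was in Sobic.001G394100.1, for which the sources used here give no name, from 0.43, 0.58 and 0.37 RPKM in Int2 to 54.6, 63.8 and 16.9 RPKM in Int3 (log2 fold change 5.37 ± 0.37 SE, adjusted p = 2.6e-06). Among the 10 largest were also a fasciclin-like arabinogalactan protein, an alpha-expansin, an O-methyltransferase of the phenylpropanoid category (Sobic.004G128400.1) and a predicted triacylglycerol lipase (Sobic.009G048100.1). The methyltransferase was at 0.27, 0.35 and 0.28 RPKM in Int2 and at 22.0, 25.5 and 10.6 RPKM in Int3. The lipase was listed at 0 in 2 of the 3 Int2 libraries and at 0.04 RPKM in the other, and reached 18.5, 18.8 and 7.59 RPKM in Int3. In both, replicate 3 was the lowest of the Int3 libraries. The steepest fall was in Sobic.001G261440.1, also without a name here, from 57.6, 67.9 and 82.9 RPKM to 5.64, 4.02 and 1.65 RPKM (log2 fold change -4.15 ± 0.50 SE). Of the 10 largest falls only Sobic.002G128600.1 was annotated, as a relative of phosphatidylcholine-sterol O-acyltransferases, which move acyl chains from phospholipids to sterols. It dropped from 43.3, 37.9 and 34.3 RPKM to 2.57, 3.1 and 2.42 RPKM.

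Quantitative PCR primers were designed in the study for 10 transcripts. The study had found them differentially expressed in these same libraries, so their calls here are not independent evidence. In the RNA-seq libraries 5 of the 10 were called higher in Int3 and 1 lower, beside 9.74% of all members called in either direction. Without replicate 3 of Int3, 3 were called higher. The primers of the strongest riser and of the only faller among them are printed here, in lower case and from 5′ to 3′, since they define the oligos with which those 2 transcripts can be measured again.
Sobic.001G494000.1 forward: cgtgggtatacgatggtcac
Sobic.001G494000.1 reverse: ccctccttaattccccactg
Sobic.003G328500.1 forward: ggctatcctggttgattgga
Sobic.003G328500.1 reverse: atagctgaaacgccgacaag
The first transcript was at 3.32, 3.19 and 1.11 RPKM in Int2 and at 24.5, 22.0 and 24.7 RPKM in Int3, with a log2 fold change of 3.096 ± 0.28 (SE, adjusted p = 1.1e-05). The second was at 41.2, 42.7 and 58.5 RPKM in Int2 and at 6.87, 4.46 and 4.13 RPKM in Int3, with a log2 fold change of -3.097 ± 0.45 (SE, adjusted p = 0.000231). Its call was lost, with an adjusted p of up to 0.00149, without replicate 2 or 3 of either internode.

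For the functional groups, the study's own annotation was used. It covers only transcripts that the study had selected, on these same libraries, as different between some pair of internodes, and the copy used here holds 770 of them. Of these, 744 were members, and 220 were called (29.6%), 143 higher (19.2%) and 77 lower (10.3%). The Int2 and Int3 libraries did not overlap in 389 of the 744 with higher values in Int3 and in 236 with lower values. A group's count is therefore read against these shares rather than against those of all members, and its direction is not independent evidence. The median log2 fold change of the 744 was 0.47. Several members are transcripts of 1 locus that share reads, and their values are not independent.

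The transcripts of cell wall categories rose more often than they fell, as did the annotated transcripts as a whole (143 of 744 higher, 77 lower, median 0.47). Of 195 members, 49 were called higher and 19 lower, with a median log2 fold change of 0.55, and the 49 rises came from 44 loci. Together the cell wall transcripts summed to 9030 ± 704 RPKM in Int2 and 11361 ± 795 RPKM in Int3 (SD, n = 3), and the groups did not overlap.

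All 3 secondary wall cellulose synthase (CESA) transcripts, whose products make the cellulose of xylem and fiber walls, were called higher. For Sobic.003G296400.1 the RPKM was 26.8, 19.6 and 7.07 in Int2 and 172, 167 and 277 in Int3. Sobic.002G205500.1 was at 22.1, 16.4 and 5.88 RPKM in Int2 and at 133, 121 and 201 RPKM in Int3, and Sobic.001G224300.1 was at 24.03, 17.6 and 7.64 RPKM and at 128, 123 and 187 RPKM. Replicate 3 was the lowest of the Int2 libraries and the highest of the Int3 libraries in all 3 transcripts, and no Int2 library came near an Int3 library. Their log2 fold changes were 3.64 ± 0.38, 3.46 ± 0.39 and 3.23 ± 0.37 (SE), with adjusted p-values from 2.28e-05 to 4.13e-05. Summed over the 3, the level was 49.0 ± 26.5 RPKM in Int2 and 503 ± 141 RPKM in Int3 (SD, n = 3), a ratio of 10.3. These are the defining transcripts of secondary wall formation on the list, and they were present in Int2 already, above their mean levels of 3.94 to 4.51 RPKM in Int1.

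Primary wall CESA transcripts were more abundant. Of 8 members from 6 loci, 1 was called. This was Sobic.002G118700.1, at 202, 224 and 189 RPKM in Int2 and 553, 536 and 600 RPKM in Int3 (log2 fold change 1.46 ± 0.14 SE, adjusted p = 1.53e-05), 1 of the 5 largest gains in RPKM among all called transcripts. The other isoforms of that locus, Sobic.002G118700.2 and Sobic.002G118700.3, had log2 fold changes of 0.40 and 0.07 and were not called. The most abundant primary wall CESA that was not called, Sobic.009G063400.1, was at 305, 278 and 240 RPKM in Int2 and at 364, 323 and 348 RPKM in Int3 (log2 fold change 0.33 ± 0.10 SE, adjusted p = 0.0186). All 8 had positive log2 fold changes, with a median of 0.43. Their summed level was 1195 ± 105 RPKM in Int2 and 1876 ± 92.8 RPKM in Int3, so primary wall CESA RPKM still exceeded that of the secondary wall set in Int3.

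COBRA-like proteins are membrane-anchored proteins needed for orderly cellulose deposition. Only 1 of the 5 members was called, Sobic.001G336700.1, whose closest Arabidopsis relative acts in secondary walls. It was at 9.49, 4.71 and 1.77 RPKM in Int2 and at 54.9, 51.9 and 73.4 RPKM in Int3 (log2 fold change 3.61 ± 0.43 SE, adjusted p = 5.36e-05). A further relative of the same Arabidopsis gene, Sobic.002G368300.1, had a log2 fold change of 1.79 ± 0.35 (SE) and missed the threshold with an adjusted p of 0.00173. The most abundant member, Sobic.001G086200.1, was at 277, 280 and 231 RPKM in Int2 and at 377, 366 and 346 RPKM in Int3, below the 2-fold threshold. Sobic.001G399900.1 and Sobic.002G368100.1 were also not called, with log2 fold changes of 0.05 and 1.052. Another COBRA-like transcript, Sobic.002G427400.1, stayed under 1 RPKM in both internodes.

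The enzymes that make nucleotide sugars for hemicellulose and pectin were high in both internodes. UDP-glucose dehydrogenase (UGD) forms UDP-glucuronic acid, UDP-glucuronate decarboxylase (UXS) turns it into UDP-xylose, and the UDP-xylose 4-epimerase MUR4 turns that into UDP-arabinose. None of their 13 members was called by limma, although 9 had an unadjusted p under 0.05 with higher values in Int3, and at an adjusted p under 0.05 the test called 1 MUR4 isoform. Leaving out replicate 1 of Int2 gave 1 UXS call, and leaving out replicate 2 or 3 of Int2 or replicate 1 of Int3 gave 1 MUR4 call. Summed UGD level was 601 ± 71.7 RPKM in Int2 and 847 ± 128 RPKM in Int3. Summed MUR4 level was 101 ± 10.3 RPKM and 150 ± 11.6 RPKM, and in neither enzyme did the libraries overlap. Summed UXS level, by contrast, overlapped, at 617 ± 152 RPKM and 720 ± 93.4 RPKM. The UXS total was mostly that of Sobic.001G418100.2, at 636, 495 and 368 RPKM in Int2 and at 514, 460 and 608 RPKM in Int3. The less abundant UXS transcripts Sobic.003G348800.1 and Sobic.003G149500.1 passed the adjusted p but not the 2-fold threshold, with log2 fold changes of 0.89 and 0.83. Sobic.006G213100.1, for an enzyme that forms UDP-N-acetylglucosamine, was called, from 74.8, 68.3 and 52.7 RPKM to 150, 136 and 178 RPKM (adjusted p = 3.95e-05).

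Glucuronoxylan is the main hemicellulose of grass secondary walls. Of the 5 members that synthesize it, 2 were called higher and all 5 had non-overlapping, higher values in Int3, with a median log2 fold change of 1.82. Sobic.001G409100.1, related to IRX9, a glycosyltransferase of the xylan backbone in Arabidopsis, was at 19.9, 17.6 and 14.7 RPKM in Int2 and at 57.3, 62.6 and 67.9 RPKM in Int3 (log2 fold change 1.82 ± 0.18 SE, adjusted p = 1.79e-05). The second IRX9 relative, Sobic.009G026101.1, was at 49.6, 50.8 and 42.0 RPKM and at 82.2, 77.1 and 102 RPKM, under the 2-fold threshold. The most abundant member, Sobic.003G376700.1, a relative of the glucuronosyltransferases that add side groups to xylan, was at 123, 125 and 149 RPKM in Int2 and at 175, 225 and 221 RPKM in Int3 (log2 fold change 0.64). The isoform Sobic.001G479800.2 was called with a log2 fold change of 2.24 ± 0.39 (SE), but it remained called in 3 of the 12 fits that left out 1 library, and its sister Sobic.001G479800.1 was not called at 1.90 ± 0.48 (SE).

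Cellulose synthase-like proteins make the backbones of other wall polysaccharides, such as mannan and xyloglucan. Among their 15 members 1 was higher and 2 were lower in Int3, with a median log2 fold change of 0.09. The steepest fall of any annotated wall transcript was in Sobic.008G125700.1, a relative of the Arabidopsis CSLD proteins, from 20.7, 25.3 and 30.5 RPKM to 2.89, 2.02 and 1.24 RPKM (log2 fold change -3.38 ± 0.34 SE, adjusted p = 1.97e-05). It had been highest in Int1, at a mean of 35.4 RPKM. Sobic.002G333800 was the only locus with isoforms called in both directions. Its isoform Sobic.002G333800.2 was at 1.51, 1.37 and 0.88 RPKM in Int2 and at 11.1, 8.76 and 10.1 RPKM in Int3, while Sobic.002G333800.1 was at 3.47, 3.31 and 3.89 RPKM and at 1.42, 1.34 and 1.46 RPKM. The rise kept its call in every fit that left out 1 library, and the fall kept it in 2 of 12. The list held 2 rises without replicate 2 of Int2, replicate 3 of Int3 or replicate 1 of Int4. The most abundant member that was not called, Sobic.007G050600.1, was at 156, 146 and 142 RPKM in Int2 and at 183, 194 and 228 RPKM in Int3.

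Xyloglucan fucosyltransferases add the terminal fucose to xyloglucan, a primary wall polymer. Of the 3 neighbouring loci, Sobic.004G308200.1 was at 1.96, 1.75 and 2.31 RPKM in Int2 and 6.94, 7.45 and 6.48 RPKM in Int3, and Sobic.004G308400.1 was at 1.07, 1.61 and 1.51 RPKM and 4.89, 5.54 and 5.27 RPKM. Both were called higher, with log2 fold changes of 1.58 and 1.61. The last of the 3, Sobic.004G308600.1, was at 2.28, 1.93 and 2.05 RPKM in Int2 and at 0.67, 0.69 and 2.2 RPKM in Int3, and was not called (adjusted p = 0.0759). How reads were shared among these related loci is not stated, so the split between them is uncertain.

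Arabinogalactan proteins, heavily glycosylated proteins of the cell surface, moved in both directions. Of 14 members 2 were higher and 3 lower, and the median log2 fold change was -0.31. Sobic.009G056400.1, closest to the Arabidopsis fasciclin-like protein FLA11 of secondary walls, rose most, from 0.79, 0.62 and 0.13 RPKM to 17.4, 23.99 and 58.8 RPKM (log2 fold change 4.93 ± 0.41 SE, adjusted p = 6.45e-06). A second FLA11 relative, Sobic.003G062000.1, was the most abundant, at 174, 114 and 33.9 RPKM in Int2 and at 242, 253 and 387 RPKM in Int3. It was not called (adjusted p = 0.0122), and its Int2 libraries were widely spread. The other called riser, Sobic.002G244300.1, kept its call in 2 of the 12 fits that left out 1 library. Sobic.004G117400.1 and Sobic.009G081400.1, both related to the small arabinogalactan peptide AGP16 of Arabidopsis, fell from 171, 174 and 144 RPKM to 46.7, 54.5 and 41.1 RPKM and from 32.0, 26.6 and 20.9 RPKM to 4.21, 4.1 and 5.17 RPKM. Sobic.004G254300.1, related to FLA2, fell from 3.65, 3.51 and 4.14 RPKM to 0.1, 0.14 and 0.19 RPKM (log2 fold change -2.73 ± 0.17 SE, adjusted p = 1.79e-06). The called relative of FLA11 and the called relatives of FLA2 and AGP16 thus lay on opposite sides.

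Expansins loosen the wall without cutting its polymers. Of 22 members, 7 were called higher and 1 lower, with a median log2 fold change of 1.01. The alpha-expansin Sobic.006G031900.1 stood out by its peak in Int3. It was at 0.35, 1.38 and 0.96 RPKM in Int2, at 35.1, 35.1 and 35.4 RPKM in Int3, and at means of 0.37 RPKM in Int1 and 1.57 RPKM in Int4 (log2 fold change against Int2 4.75 ± 0.52 SE, adjusted p = 3.25e-05). Other risers went on to higher means in Int4. The beta-expansin Sobic.001G300800.2 was at 6.17, 5.0 and 3.06 RPKM in Int2, at 32.8, 37.5 and 65.9 RPKM in Int3 and at a mean of 134 RPKM in Int4, and the alpha-expansin Sobic.003G338801.1 was at 15.9, 21.7 and 14.98 RPKM, at 55.8, 57.7 and 35.0 RPKM and at a mean of 172 RPKM. The beta-expansin Sobic.004G191600.1 was the only one called lower, from 37.96, 37.96 and 37.4 RPKM to 19.2, 20.4 and 15.4 RPKM, and it dropped under 2-fold without replicate 3 of Int3 (log2 fold change -0.91) and under median-ratio scaling. Without replicate 3 of Int4, 2 expansins were called lower. The most abundant expansin, Sobic.004G227900.1, another beta-expansin, was at 89.2, 104 and 86.3 RPKM in Int2 and at 63.1, 51.4 and 46.4 RPKM in Int3 and was not called. Without replicate 3 of Int2 or replicate 2 of Int3, 4 of the 7 rises were called, and the rise of Sobic.003G338801.1 was lost without replicate 1 or 3 of Int2 and without replicate 1 or 2 of Int3.

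XTH enzymes cut and rejoin xyloglucan, and their members split. Of 17, 2 were called higher and 5 lower, with a median log2 fold change of -0.02. Sobic.006G228100.1 fell from 120, 119 and 146 RPKM to 17.3, 20.2 and 13.7 RPKM (log2 fold change -2.88 ± 0.37 SE, adjusted p = 9.24e-05), continuing from a mean of 267 RPKM in Int1 to 3.39 RPKM in Int4. Sobic.004G126700.1 fell from 49.5, 43.3 and 35.6 RPKM to 5.84, 6.56 and 5.83 RPKM, and Sobic.001G441700.1 from 27.6, 26.7 and 25.6 RPKM to 6.57, 6.69 and 8.77 RPKM. In the other direction, Sobic.001G538000.1 rose from 4.14, 4.45 and 2.9 RPKM to 16.3, 16.6 and 22.5 RPKM (adjusted p = 1.64e-05). The second riser, Sobic.001G309000.1, was at 9.86, 14.9 and 12.02 RPKM and at 38.1, 36.5 and 33.2 RPKM, and it lost its call without replicate 1 or 3 of Int2 or any 1 library of Int3. The group total was dominated by Sobic.010G246700.1, at 707, 889 and 717 RPKM in Int2 and at 973, 1006 and 1083 RPKM in Int3, which was not called. The summed XTH level overlapped between the internodes, at 1171 ± 106 RPKM and 1407 ± 140 RPKM.

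**Figure D2:**
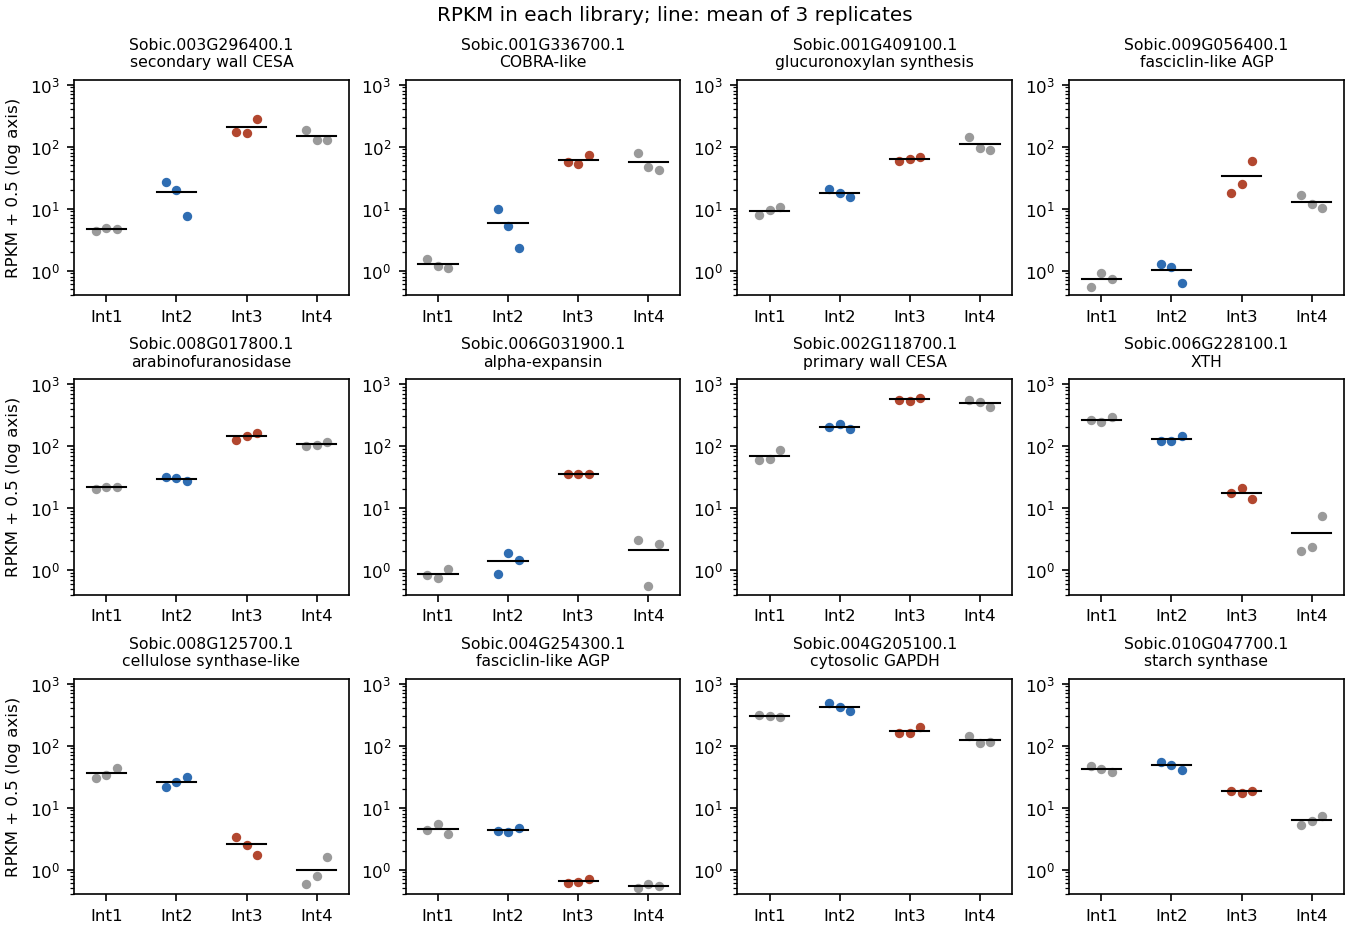
RPKM + 0.5 (log axis) of 12 transcripts in the 3 libraries of each internode, with a line at the mean, Int2 in blue and Int3 in red. The 3 Int3 libraries of the alpha-expansin Sobic.006G031900.1 sit together at 35.1 to 35.4 RPKM, whereas the secondary wall CESA Sobic.003G296400.1 stays high in Int4 at a mean of 146 RPKM and the XTH Sobic.006G228100.1 declines across all 4 internodes.

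Pectin is the gel-like polymer of primary walls and of the layer between cells. Transcripts for pectate lyases and polygalacturonases, which cut it, had a median log2 fold change of -0.40 over 17 members, and their summed level was 514 ± 43.2 RPKM in Int2 and 368 ± 5.02 RPKM in Int3. None of them was called lower, although 8 had an unadjusted p under 0.05 in limma and lower values in Int3 and 1 fall was called at an adjusted p under 0.05 or without replicate 2 of Int4. The most abundant, Sobic.001G026800.1, was at 121, 121 and 115 RPKM in Int2 and at 76.9, 74.6 and 69.9 RPKM in Int3 (log2 fold change -0.69 ± 0.07 SE, adjusted p = 3.04e-05), a precise difference below 2-fold. The 1 called riser, Sobic.004G319600.1, kept its call in 4 of the 12 fits that left out 1 library. Among pectin methylesterases and acetylesterases, which trim side groups from pectin, 4 of 18 members were higher and 1 lower, or 2 lower without replicate 2 or 3 of Int4. The pectin methylesterase Sobic.007G146200.1 rose from 4.77, 8.06 and 5.28 RPKM to 33.4, 34.0 and 26.5 RPKM (log2 fold change 2.31 ± 0.26 SE), and the acetylesterase Sobic.003G094800.1 from 9.57, 9.23 and 5.85 RPKM to 26.6, 32.1 and 33.5 RPKM. Sobic.006G172000.1, another methylesterase, fell from 4.84, 7.27 and 6.57 RPKM to 0.93, 1.5 and 0.18 RPKM. The total for these esterases overlapped between the internodes.

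The alpha-L-arabinofuranosidases and beta-D-xylosidases, which trim side chains of xylan and related polymers, rose as a group. All 9 members had non-overlapping, higher values in Int3, and 8 were called. The 8 came from 4 of the 5 loci, since 5 of them are isoforms of Sobic.005G087400 at 2.05 to 2.97 RPKM in Int3, close to the mean RPKM threshold of 2. Sobic.008G017800.1, a bifunctional enzyme of the group, was at 30.7, 29.8 and 26.9 RPKM in Int2 and at 125, 143 and 162 RPKM in Int3 (log2 fold change 2.27 ± 0.10 SE, adjusted p = 3.04e-07). Sobic.001G389800.1 was at 5.53, 4.99 and 4.74 RPKM and at 16.6, 18.0 and 18.9 RPKM. In both, the replicates were tight and the rise was larger than any spread within an internode. Sobic.006G157700.1 rose just past the threshold, with a log2 fold change of 1.02 ± 0.10 (SE), and lost its call without replicate 1 of Int2 or replicate 3 of Int3. The uncalled member, Sobic.005G110436.1, was at 5.76, 4.79 and 1.47 RPKM in Int2 and at 8.19, 7.98 and 16.3 RPKM in Int3. With a mean of at least 2 RPKM over the 6 libraries required, 3 members were called, and 5 were called without replicate 1 of Int2 and 4 without replicate 3 of Int3.

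Lignin is a phenolic polymer that waterproofs and stiffens secondary walls. Of 39 members of the lignin categories, 15 were called higher in Int3 and none lower, with a median log2 fold change of 0.94. In limma 28 members had an unadjusted p under 0.05 and higher values in Int3 and 3 had one with lower values, and at an adjusted p under 0.05 the test called 1 fall. Without replicate 3 of Int3 the number called was 8, as it was in the fit on 6 libraries alone.

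Phenylalanine ammonia-lyase (PAL) opens the pathway by turning phenylalanine into cinnamic acid, and all 4 of its members were called higher. Sobic.004G220300.1 was the most abundant, at 415, 334 and 187 RPKM in Int2 and at 1183, 1383 and 2078 RPKM in Int3 (log2 fold change 2.34 ± 0.30 SE, adjusted p = 8.49e-05), which was among the 5 largest gains in RPKM of any called transcript. It was not called in the fit on the 6 libraries alone. Its neighbour Sobic.004G220700.1 was lower but much less variable, at 24.7, 26.3 and 25.9 RPKM and at 60.0, 57.9 and 55.4 RPKM (log2 fold change 1.16 ± 0.08 SE, adjusted p = 2.56e-06). Sobic.004G220500.1 went from 5.61, 7.62 and 8.49 RPKM to 23.0, 20.5 and 19.2 RPKM. Sobic.004G220400.1 was at 126, 125 and 102 RPKM and at 213, 240 and 260 RPKM, only just past the 2-fold threshold (log2 fold change 1.02), and its call was lost without replicate 3 of Int2 or of Int3. The 4 loci carry nearby numbers on 1 chromosome and are related, so the division of reads between them is uncertain.

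Cinnamate 4-hydroxylase (C4H) and coumarate 3-hydroxylase (C3H) add hydroxyl groups to the ring. None of their 4 members was called, with 3 at an unadjusted p under 0.05 and 1 C4H transcript called at an adjusted p under 0.05. The more abundant C3H transcript, Sobic.009G181800.1, was at 54.9, 47.0 and 38.2 RPKM in Int2 and at 64.0, 68.0 and 87.5 RPKM in Int3 (log2 fold change 0.64 ± 0.17 SE). Sobic.001G364200.2, the other, had a log2 fold change of 0.72 ± 0.17 (SE). Annotated C4H transcripts were low. Sobic.003G337400.1 was at 6.16, 4.2 and 2.62 RPKM in Int2 and at 6.31, 4.19 and 7.55 RPKM in Int3, and the groups overlapped. Sobic.004G141200.1 was at 0.82, 1.68 and 1.03 RPKM and at 2.75, 3.89 and 3.76 RPKM (log2 fold change 1.26, adjusted p = 0.00343).

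The 4-coumarate:CoA ligase (4CL) category, which activates the acids with coenzyme A, had 4 of 12 members called higher. Sobic.010G214900.1 was at 24.3, 27.1 and 22.9 RPKM in Int2 and at 51.3, 61.9 and 67.2 RPKM in Int3 (log2 fold change 1.26 ± 0.14 SE, adjusted p = 3.37e-05). Sobic.004G062500.1 was at 43.1, 29.9 and 21.0 RPKM and at 83.8, 112 and 185 RPKM, a larger but more variable rise that was lost without replicate 2 or 3 of either internode. Another called member, Sobic.002G009600.1, rose from 1.08, 1.94 and 1.13 RPKM to 7.08, 6.44 and 6.99 RPKM, but its closest Arabidopsis relative activates fatty acids in peroxisomes rather than phenolic acids. The uncalled Sobic.001G189300.1, of the same kind, was at 16.4, 16.4 and 16.6 RPKM and at 13.1, 12.95 and 9.85 RPKM.

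Hydroxycinnamoyl transferase (HCT) passes the acids to shikimate, and 2 of its 5 members were called. Sobic.004G212300.1 was at 30.1, 24.99 and 17.6 RPKM in Int2 and at 60.2, 66.5 and 96.2 RPKM in Int3, and Sobic.006G136800.1 was at 21.8, 19.1 and 17.1 RPKM and at 36.6, 52.8 and 69.8 RPKM. Their log2 fold changes were 1.60 ± 0.25 and 1.39 ± 0.22 (SE). Both fell below the threshold in the fits without replicate 2 or 3 of Int3 or replicate 2 or 3 of Int2, and that of Sobic.006G136800.1 was also lost without replicate 1 of Int2. Sobic.002G175600.1 was more even, at 17.1, 23.0 and 17.0 RPKM and at 38.4, 35.9 and 35.9 RPKM, but fell short of 2-fold with a log2 fold change of 0.94 ± 0.13 (SE, adjusted p = 0.00019). Sobic.004G328700.1 had the only negative value, from 2.43, 8.29 and 7.83 RPKM to 2.77, 2.39 and 0.23 RPKM (log2 fold change -1.65 ± 0.61 SE, adjusted p = 0.0474), with overlapping libraries. Sobic.002G205300.1 was not called (log2 fold change 0.67), and Sobic.010G066601.1 stayed under 1 RPKM on average.

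Caffeoyl-CoA O-methyltransferase (CCoAOMT) methylates the intermediates. Sobic.007G218800.1 rose from 47.8, 35.3 and 13.8 RPKM to 131, 153 and 309 RPKM (log2 fold change 2.66 ± 0.41 SE, adjusted p = 0.000337), a call that was lost without replicate 2 of Int2 or replicate 2 or 3 of Int3. The most abundant CCoAOMT, Sobic.010G052200.1, was at 240, 244 and 191 RPKM and at 320, 356 and 382 RPKM and was not called. Sobic.002G242300.1 was below 1 RPKM in all 6 libraries.

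Cinnamoyl-CoA reductase (CCR) and cinnamyl alcohol dehydrogenase (CAD) make the alcohols that are polymerized into lignin. All 8 CCR members had positive log2 fold changes and 3 were called, among them Sobic.009G243400.1, from 2.67, 3.64 and 2.55 RPKM to 10.3, 11.4 and 15.96 RPKM (adjusted p = 1.6e-05), and Sobic.003G342200.1, from 0.14, 0.44 and 0.25 RPKM to 3.04, 4.8 and 4.72 RPKM (adjusted p = 7.83e-06). Both are filed as CCR, but their closest Arabidopsis relatives are described only as NAD(P)-binding proteins. Sobic.002G146000.1, a relative of the Arabidopsis lignin CCR, was also called, with a log2 fold change of 2.50 ± 0.38 (SE), and lost its call without replicate 1 or 3 of Int3. The most abundant CCR, Sobic.007G141200.1, was at 39.6, 33.8 and 29.2 RPKM in Int2 and at 51.8, 75.3 and 153 RPKM in Int3 and was not called (adjusted p = 0.0102), and its Int3 libraries were widely spread. Neither CAD member was called by limma, and both had an unadjusted p under 0.05. Sobic.004G071000.1 was at 30.5, 25.2 and 19.4 RPKM and at 40.5, 45.0 and 68.1 RPKM (log2 fold change 1.005 ± 0.24 SE, adjusted p = 0.00584), and Sobic.006G014700.1 passed the adjusted p but stayed under a mean of 2 RPKM.

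Summed over the annotated transcripts of each enzyme, the 8 lignin categories described here were higher in every Int3 library than in any Int2 library. Transcripts that the study had not selected as different are left out, so a sum need not be the whole level of an enzyme. PAL rose from 463 ± 126 RPKM to 1864 ± 488 RPKM (SD, n = 3), a ratio of 4.03, and C3H had the smallest ratio, 1.57, from 48.0 ± 8.36 RPKM to 75.6 ± 12.5 RPKM. CCoAOMT was at 257 ± 45.5 RPKM and 551 ± 125 RPKM, 4CL at 95.02 ± 13.5 RPKM and 233 ± 58.6 RPKM, HCT at 72.5 ± 8.54 RPKM and 173 ± 34.8 RPKM, and CCR at 82.3 ± 11.4 RPKM and 191 ± 67.2 RPKM. CAD and C4H totals were lower, at 25.2 ± 5.45 RPKM and 52.6 ± 15.3 RPKM for CAD and at 5.50 ± 1.70 RPKM and 9.48 ± 1.66 RPKM for C4H. With 3 libraries against 3, an exact permutation test cannot give a two-sided p below 0.1, so these totals carry no test. Replicate 3 of Int3 had the highest total in all 8 categories, and replicate 3 of Int2 the lowest in all 8.

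**Figure D3:**
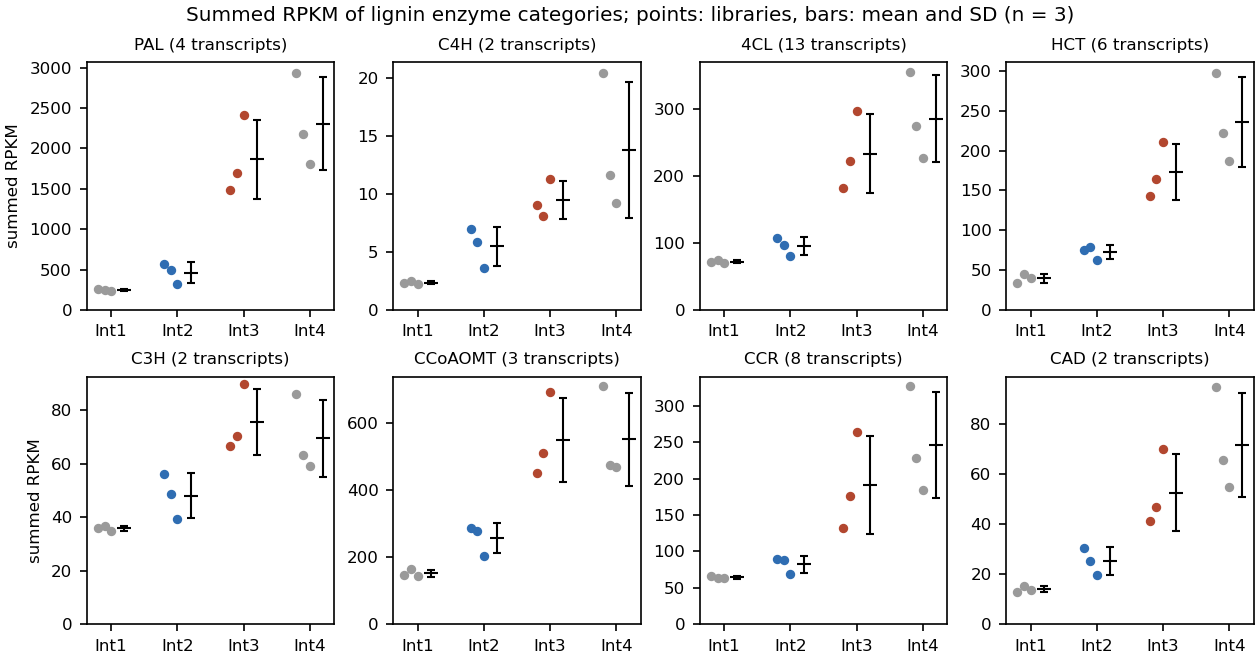
Summed RPKM of 8 lignin enzyme categories in each library (points) by internode, with the mean and SD of 3 replicates (black), each panel on its own axis from 0. The Int3 libraries (red) lie above the Int2 libraries (blue) in every panel, with replicate 3 of Int3 the highest, for PAL at 2413 RPKM.

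Flavonoid transcripts, whose products branch from the same phenylpropanoid precursors, were mostly higher in Int3 among those called. Of 32 members 12 were called higher and 1 lower, with a median log2 fold change of 1.15. A flavonoid 3'-hydroxylase relative, Sobic.009G162500.1, had the largest change of the group, from 8.73, 6.32 and 2.43 RPKM to 74.7, 79.7 and 164 RPKM (log2 fold change 4.13 ± 0.39 SE, adjusted p = 1.39e-05). A second transcript of that kind, Sobic.001G360700.1, rose from 6.63, 4.97 and 2.58 RPKM to 21.1, 22.5 and 40.4 RPKM, and the chalcone isomerase family transcript Sobic.008G030100.2 from 4.54, 4.13 and 1.73 RPKM to 24.99, 31.0 and 62.3 RPKM. In each of these replicate 3 was again the lowest in Int2 and the highest in Int3. The most abundant uncalled member, Sobic.006G227800.2, was at 25.4, 21.2 and 12.3 RPKM and at 15.8, 14.5 and 24.5 RPKM, and its groups overlapped. The acyltransferase Sobic.002G139200.1 was lower in Int3, by 1.003 on the log2 scale, a call that was lost without replicate 2 of Int2 or replicate 2 of Int3, with a pseudocount of 1 and under median-ratio scaling. Without replicate 3 of Int2, 2 flavonoid transcripts were called lower.

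Amino acid synthesis transcripts moved both ways, with 7 of 57 members higher, 9 lower and a median log2 fold change of 0.28. Without replicate 3 of Int2 or of Int3, 4 were lower. Among the risers were steps that lead to phenylalanine, the substrate of PAL. Arogenate dehydratase (Sobic.006G066200.1), the last step to phenylalanine, rose from 17.5, 20.4 and 18.7 RPKM to 48.7, 55.8 and 59.3 RPKM (log2 fold change 1.505 ± 0.14 SE, adjusted p = 1.03e-05), and a shikimate kinase relative (Sobic.006G235500.1) from 29.9, 25.3 and 20.8 RPKM to 82.6, 85.2 and 184 RPKM (adjusted p = 9.51e-05). A transcript filed under tryptophan synthesis, Sobic.002G303300.1, also rose, from 26.8, 27.0 and 23.6 RPKM to 61.2, 62.3 and 63.1 RPKM, but it is described as a phosphoribosyltransferase with calcium- and lipid-binding domains. S-adenosylmethionine synthetase (Sobic.009G033600.1), which makes the methyl donor for methyltransferases, was at 640, 596 and 515 RPKM and at 945, 1047 and 1478 RPKM and just missed both thresholds (log2 fold change 0.96, adjusted p = 0.00103). Phosphoglycerate dehydrogenase (Sobic.006G243400.1), the entry to serine synthesis, fell from 56.6, 52.8 and 54.9 RPKM to 18.8, 20.1 and 19.6 RPKM (log2 fold change -1.47 ± 0.10 SE, adjusted p = 3.01e-06). Diaminopimelate decarboxylase (Sobic.008G038600.1), the last step to lysine, and argininosuccinate synthase (Sobic.008G083400.1) of arginine synthesis had log2 fold changes of -1.04 and -1.30, and their calls were lost without replicate 3 of Int2 or of Int3 and, for the second, also without replicate 2 of Int2.

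All 7 members for starch breakdown had negative log2 fold changes and 2 were called lower, and of the 8 members for starch synthesis 7 had negative values and 1 was called lower, or 3 without replicate 1 and 2 without replicate 3 of Int4. The medians were -0.77 and -0.76. A starch synthase (Sobic.010G047700.1), which elongates glucan chains, was at 54.2, 48.1 and 40.5 RPKM in Int2 and at 18.3, 16.8 and 18.1 RPKM in Int3 (log2 fold change -1.39 ± 0.14 SE, adjusted p = 1.82e-05). The granule-bound type Sobic.002G116000.1 was more abundant, at 105, 92.4 and 102 RPKM and at 29.2, 32.0 and 57.6 RPKM, and was not called (adjusted p = 0.0061). Within breakdown, a plastid phosphate translocator (Sobic.009G088200.1) fell from 21.1, 22.6 and 24.99 RPKM to 6.4, 7.48 and 5.75 RPKM and a disproportionating enzyme (Sobic.002G383700.1) from 11.5, 12.4 and 13.6 RPKM to 4.5, 4.05 and 4.24 RPKM. Summed starch synthesis RPKM was 232 ± 9.37 in Int2 and 115 ± 18.1 in Int3 (SD, n = 3), and summed breakdown RPKM was 176 ± 19.2 and 103 ± 23.6. Of the 9 sucrose breakdown members none was called by limma, with 5 higher and 3 lower at an unadjusted p under 0.05. The main sucrose synthase, Sobic.010G072300.1, was at 157, 197 and 203 RPKM in Int2 and at 337, 321 and 301 RPKM in Int3 (log2 fold change 0.79 ± 0.16 SE).

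Trehalose metabolism, which makes the sugar signal trehalose 6-phosphate, had 6 of 13 members called higher from 4 of 10 loci and none lower, with a median log2 fold change of 1.22. A trehalose-6-phosphate phosphatase isoform, Sobic.004G293500.3, rose from 1.89, 3.52 and 3.7 RPKM to 28.4, 36.6 and 35.4 RPKM (log2 fold change 3.299 ± 0.21 SE, adjusted p = 1.8e-06), and 2 other isoforms of that locus rose with it. A synthase-like transcript, Sobic.002G194700.1, rose from 7.7, 7.96 and 7.13 RPKM to 19.0, 18.6 and 23.6 RPKM. Another, Sobic.004G325900.1, was at 29.7, 33.7 and 30.1 RPKM and at 63.3, 58.7 and 69.6 RPKM, only just past the 2-fold threshold, and was lost without replicate 1 or 3 of Int2 or replicate 3 of Int3. Every trehalose member reached its highest mean of the 4 internodes in Int4. The most abundant, Sobic.002G184600.1, was at 122, 136 and 138 RPKM in Int2 and at 141, 241 and 223 RPKM in Int3 and was not called.

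Several transcripts of energy metabolism were lower in Int3. In glycolysis 5 of 20 members were called lower and 2 higher, and the summed level was 869 ± 70.6 RPKM in Int2 and 544 ± 31.5 RPKM in Int3. Cytosolic glyceraldehyde-3-phosphate dehydrogenase (Sobic.004G205100.1) was its most abundant member, at 476, 425 and 358 RPKM in Int2 and 161, 159 and 195 RPKM in Int3 (log2 fold change -1.29 ± 0.13 SE, adjusted p = 1.97e-05). Triosephosphate isomerase (Sobic.003G352300.1) fell from 33.8, 21.2 and 16.4 RPKM to 5.24, 4.6 and 7.94 RPKM, and cytosolic phosphoglycerate kinase (Sobic.010G221800.1) had a log2 fold change of -1.05, a call that was lost without replicate 1 of Int3. Both risers were pyrophosphate-dependent phosphofructokinase transcripts. Sobic.010G134000.1 was at 0.72, 0.36 and 0.24 RPKM and at 4.84, 5.37 and 8.48 RPKM, and Sobic.007G101800.3 at 6.24, 7.47 and 3.95 RPKM and at 17.6, 21.3 and 19.9 RPKM. The most abundant enzyme of that kind, Sobic.004G261800.1, pointed the other way, at 145, 130 and 132 RPKM and at 76.9, 68.8 and 70.9 RPKM, under 2-fold.

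In mitochondrial electron transport 6 of 17 members were called lower and 1 higher, with a median log2 fold change of -0.90. Subunits of NADH dehydrogenase, the first complex of the chain, fell, such as Sobic.004G183200.1 from 113, 109 and 116 RPKM to 48.0, 51.7 and 49.2 RPKM (log2 fold change -1.17 ± 0.13 SE, adjusted p = 3.14e-05). Sobic.009G062000.1, another subunit, was at 129, 143 and 123 RPKM and at 59.2, 73.0 and 57.7 RPKM, and dropped just under 2-fold without replicate 2 of Int2 or replicate 3 of Int3. A prohibitin (Sobic.002G101000.1), a scaffold of the inner mitochondrial membrane, fell from 69.6, 64.4 and 68.5 RPKM to 31.1, 30.5 and 22.9 RPKM. The alternative NAD(P)H dehydrogenase Sobic.007G035700.1 was the 1 riser, from 24.3, 21.3 and 24.99 RPKM to 51.3, 49.9 and 65.1 RPKM, and kept its call in 4 of the 12 fits that left out 1 library. Without replicate 1 of Int3, 3 of the 6 falls were called.

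Lipid transcripts were mixed. Of 32 members for fatty acid synthesis and elongation 5 were higher and 9 lower, with a median log2 fold change of -0.48. Enoyl-ACP reductase (Sobic.007G112100.1), part of the plastid fatty acid synthase, fell from 75.8, 72.8 and 80.5 RPKM to 23.7, 20.1 and 18.8 RPKM (log2 fold change -1.85 ± 0.14 SE, adjusted p = 3.72e-06). An acyl-ACP thioesterase (Sobic.004G088100.1), which releases finished fatty acids, rose from 12.9, 18.4 and 19.7 RPKM to 63.1, 78.0 and 50.6 RPKM, and a plastid acetyl-CoA synthetase (Sobic.006G064600.1) from 23.0, 19.1 and 12.8 RPKM to 59.0, 54.0 and 77.7 RPKM. The most abundant uncalled member, the desaturase Sobic.006G048700.1, was at 290, 280 and 249 RPKM and at 362, 411 and 397 RPKM. Lipid transfer proteins had 3 of 10 members called higher and none lower, with 3 lower at an unadjusted p under 0.05 in limma and 1 called lower without replicate 3 of Int2. Sobic.008G030700.1 rose most, from 1.53, 0.73 and 1.06 RPKM to 12.7, 20.3 and 29.2 RPKM (log2 fold change 3.67 ± 0.31 SE), and Sobic.006G011300.1, described only as a membrane-related protein, from 27.97, 34.1 and 40.8 RPKM to 100.4, 100.5 and 94.1 RPKM.

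Of the 4 wax members only Sobic.004G064000.1 was called. Its closest Arabidopsis relative takes part in making cuticular wax. It was at 14.1, 10.5 and 12.4 RPKM in Int2 and at 0.51, 0.76 and 0.66 RPKM in Int3 (log2 fold change -3.48 ± 0.18 SE, adjusted p = 1.03e-06). The fall did not continue, since its mean was 8.05 RPKM in Int4 and 24.9 RPKM in Int1. The remaining members, Sobic.006G144500.1, Sobic.010G107200.1 and Sobic.001G453200.1, had log2 fold changes of -0.72, 0.05 and 1.53 and were not called. In the metal handling category 4 of 23 members were higher and 2 lower, with 2 higher without replicate 2 or 3 of Int3 and 4 lower without replicate 1 of Int4. Its total was 1751 ± 154 RPKM in Int2 and 1003 ± 138 RPKM in Int3, most of it from the metallothionein Sobic.003G071901.1, at 1185, 1411 and 1449 RPKM and at 521, 707 and 414 RPKM, which was not called (adjusted p = 0.00134). This transcript passed the threshold without replicate 1 or 2 of Int4.

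Green tissue was checked with the photosynthesis list. Of its 25 members 1 was called higher and none lower, with 15 higher and 5 lower at an unadjusted p under 0.05 in limma and a median log2 fold change of 0.53. The summed level ranged from 415 to 473 RPKM in the Int2 libraries and from 485 to 588 RPKM in the Int3 libraries, a ratio of 1.16. The called transcript, Sobic.008G039900.1, encodes a subunit of glycine decarboxylase, an enzyme of photorespiration and of one-carbon metabolism, and was at 86.5, 84.9 and 65.1 RPKM and at 160, 146 and 183 RPKM. Its call was lost without replicate 2 or 3 of Int2 and without replicate 1 or 3 of Int3. Without replicate 1 of Int3 or of Int4 the list held 2 rises, and without replicate 2 of Int3 it held 1 fall. The part of green tissue in the other results was not tested.

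**Figure D4:**
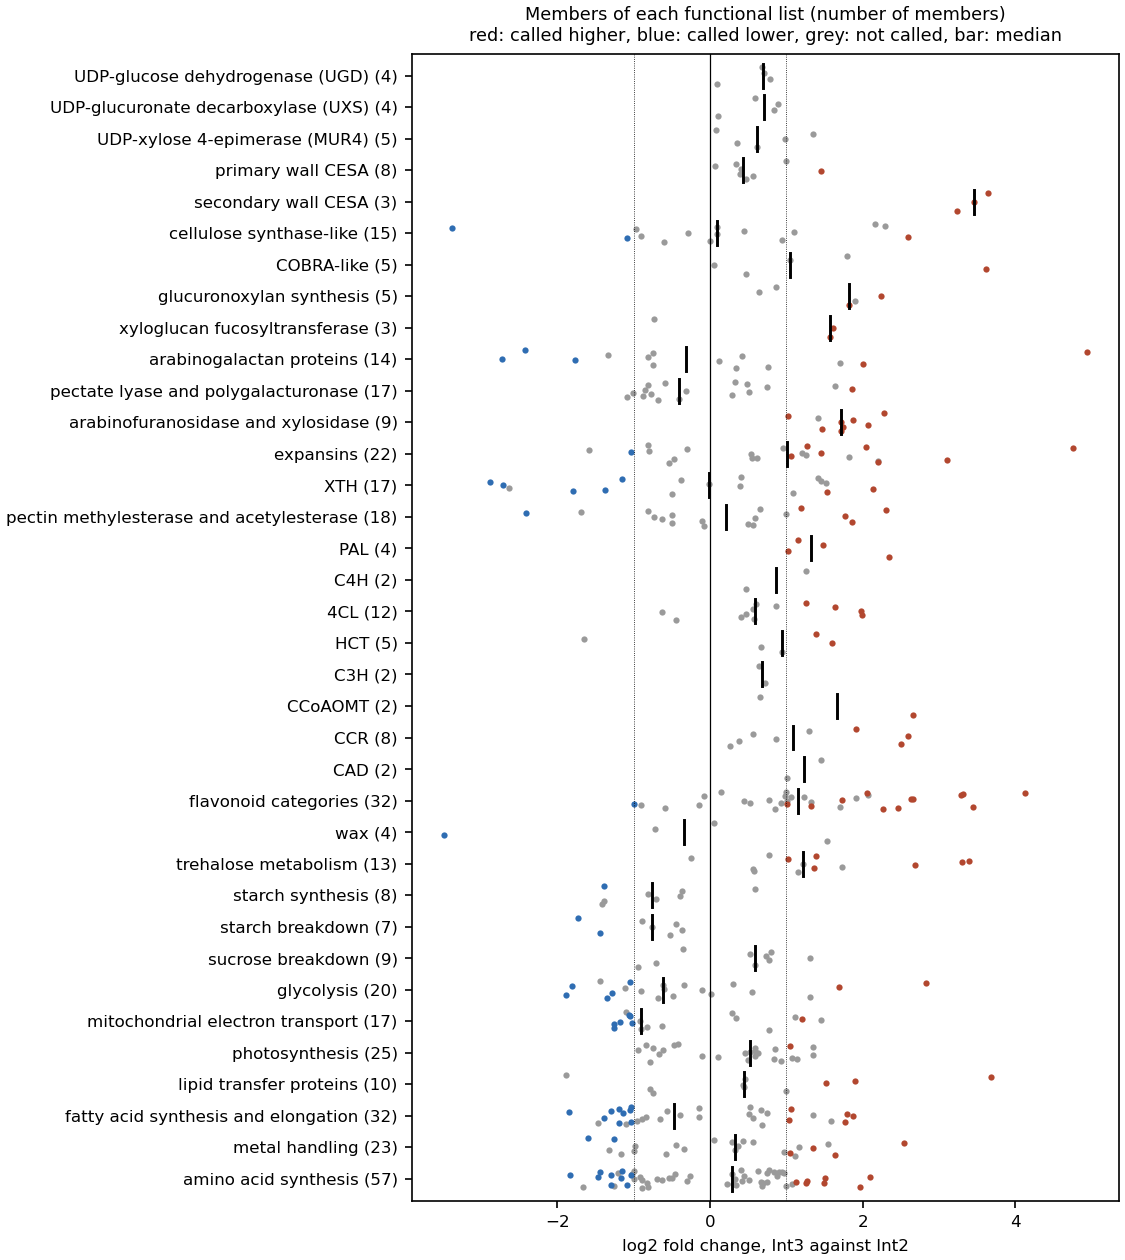
Log2 fold change of Int3 against Int2 (x axis) for every member of each functional list (rows, with the number of members), red for called higher, blue for called lower and grey for not called, with a bar at the median. The 3 secondary wall CESA transcripts stand together at 3.23 to 3.64, and the lists for XTH and arabinogalactan proteins spread to both sides of 0.

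The other internodes place these differences within the stem. Of the 1267 transcripts called higher in Int3, 897 (70.8%) had their highest mean of the 4 internodes in Int4 and 370 (29.2%) in Int3. Of all members, 21.2% had it in Int4 and 23.0% in Int3. Int4 was within 2-fold of Int3 for 865 of the 1267, at least 2-fold higher for 358 and at least 2-fold lower for 44. Of the 1136 transcripts called lower, 956 (84.2%) had their highest mean in Int1 and 180 (15.8%) in Int2. The shares of all members were 40.3% in Int1 and 15.6% in Int2. In Int4 212 of the 1136 were at least 2-fold below Int3, 915 were within 2-fold and 9 were at least 2-fold above. These counts follow in part from the choice of transcripts and share their libraries with it, so they describe the called transcripts and were not tested. By list, all 3 secondary wall CESA transcripts and 8 of the 9 arabinofuranosidase and xylosidase members, from 5 loci, had their highest mean in Int3. The summed secondary wall CESA level was 503 ± 141 RPKM in Int3 and 402 ± 127 RPKM in Int4 (SD, n = 3), and these libraries overlapped. In contrast, 29 of the 39 lignin members and 14 of the 22 expansins had their highest mean in Int4. Of the 744 annotated members, 143 had it in Int3 and 327 in Int4.

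Among the 24683 members, 1653 reached a mean of 1 RPKM only in Int3 and 1424 only in Int2. Most of these stayed low. A mean of at least 5 RPKM was reached by 84 of the first kind and 56 of the second. Of the 1653, 277 were called higher, and of the 1424, 194 were called lower. Over all members the shares were 5.13% called higher and 4.6% called lower. The direction of these calls was set by the choice of transcripts, so it carries no information. No called transcript was listed at 0 in all 3 libraries of an internode.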

How the data were processed

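Deposited values were RPKM for 47205 Sorghum bicolor v3.1 transcripts in 12 libraries. The authors prepared libraries from TRIzol RNA with a TruSeq v2 kit, sequenced them on a HiSeq 2500, aligned reads to transcript sequences with the CLC Genomics Workbench, computed RPKM per library and tested differences with edgeR, whose results were not used here. Reads that mapped to several transcripts were counted, and how they were divided between transcripts is not given in the sources used here. The kit does not mark strand, so overlapping antisense transcripts cannot be told apart.

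The 26320 transcripts whose mean reached 1 RPKM in an internode entered the fit. It was made by limma (version 3.58.1, R version 4.3.3) on log2(RPKM + 0.5) across all 12 libraries, with a separate mean for each internode and a trended prior. Fold changes are on this scale, which understates changes of low transcripts. Standard errors come from this fit and SDs from 3 libraries. The 12 libraries came from 3 plants and are not independent, and the fit held no term for the plant. Which plant gave which library is not labelled, and p-values measure the spread between libraries. The script was tested on simulated data.

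The members, the lists and the tests were chosen with earlier results of these data known. Named transcripts, with at most 2 per direction where no description was held, came from the 10 largest rises and falls, the 5 largest RPKM gains and losses, the quantitative PCR set and, per list, all members (up to 6) or up to 3 called per direction and the most abundant uncalled one. Exceptions chosen after their values were seen were the isoforms of 1 primary wall CESA, the transcripts at the member threshold and those under the other observations. Fixed lists of cell cycle, transcription factor and hormone genes needed names, but 0 of the transcripts matched the RefSeq table. The functional annotation was held in part (770 transcripts, 6972 not analysed here). Alternatives tried were other pseudocounts, filters, scaling, thresholds, weights and prior, 6 libraries only, a replicate block and leaving out each library. A withheld item was counted in list totals only and is not reported here.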

Additional observations from a re-analysis of the deposited data

How the results depend on the processing

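Under 25 alternative settings, no named transcript that was called was called in the opposite direction. This holds for calls, and small changes that were not called could change sign. Of 122 named transcripts that were called, 87 kept their call when any 1 of the 12 libraries was left out, and 78 kept it in every setting except the replicate block on 6 libraries. That fit left 0 transcripts called in limma, in either direction and in the cell wall and lignin categories, although 10608 members had an unadjusted p under 0.05. The block on 12 libraries called 2070 transcripts. Whether a replicate number marks the same plant in both internodes is not labelled. Same-numbered Int2 and Int3 libraries deviated with correlations across transcripts of -0.151, 0.056 and -0.277. Replicate 1 of Int2 correlated best with replicate 3 of Int3 (0.279). With 3 libraries per internode, whose deviations from their mean depend on each other, these correlations cannot decide whether the samples are paired.

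The fit on 6 libraries called 1590 transcripts, 734 of them higher, and 8 lignin transcripts. An adjusted p under 0.05 gave 3519 calls (1859 higher, 1660 lower) and 1 lignin transcript called lower. Median-ratio scaling moved the median of all members to 0.0231. The cause of these shifts was not tested. Leaving out 1 library at a time gave 1712 to 2478 calls, 911 to 1256 higher and 792 to 1240 lower, 36 to 50 cell wall rises and 15 to 23 falls, 8 to 15 lignin rises and 0 to 0 lignin falls, and medians of -0.03 to 0.01. The differences of summed RPKM (Int3 minus Int2) stayed positive, at 1128 to 1594 for PAL, 106 to 164 for 4CL, 3.05 to 4.72 for C4H, 20.5 to 32.2 for C3H, 81.4 to 115 for HCT, 223 to 343 for CCoAOMT, 71.9 to 138 for CCR and 18.7 to 33.1 for CAD.

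Without read counts, depth limits cannot be given for single values. Low transcripts are the least certain, since 17 of the risers were listed at 0 in at least 1 Int2 library.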

Other observations

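Further categories not covered by the lists also held several called transcripts, chosen after their values were seen. Both members of the malate dehydrogenase category were lower in Int3. Sobic.003G238500.1, of that citric acid cycle step, went from a mean of 124 RPKM in Int2 to 47.2 RPKM in Int3, with a log2 fold change of -1.39. In lipid breakdown, a lipase transcript, Sobic.003G418700.1, went from a mean of 45.9 RPKM to 225 RPKM (log2 fold change 2.27), and Sobic.001G429900.1, filed as a phospholipase A2, from 2.46 RPKM to 21.2 RPKM (log2 fold change 2.86). Transcripts of 1 carboxylesterase locus differed, with Sobic.003G048500.2 falling from 112 RPKM to 20.6 RPKM and Sobic.003G048500.1 at 32.5 RPKM and 39.99 RPKM, which was not called.

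Among wall proteins with leucine-rich repeats, Sobic.001G112800.2 went from 12.9 RPKM to 0.82 RPKM (log2 fold change -3.36), while Sobic.001G159900.1 went from 0.39 RPKM to 6.58 RPKM (log2 fold change 2.96). Sobic.001G140300.1, in the category of enzymes that break down xylan and related polymers but outside the arabinofuranosidase list, had means of 0.18, 3.04, 31.5 and 8.87 RPKM from Int1 to Int4, so its level was highest in Int3.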
